A study of Mus musculus with 6 samples.

Results

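The ileum of weaned conventional mice was compared with that of weaned germ-free mice by expression array. One sample stood on each side: SPF postweaned, from C57BL/6J mice kept conventionally under specific pathogen free (SPF) conditions, and germ-free postweaned, from C57BL/6J mice kept in an isolator without microbes. No transgene, deletion or drug is named for either, and the age of the weaned mice and whether RNA of several animals was pooled are not stated in the labels. The series holds 6 samples of ileal total RNA, and these 2 were chosen by their labels for housing and weaning. Each was read on 3 one-colour Mouse OneArray slides, so 6 of the 21 arrays of the series enter the comparison. Levels are log2 values of quantile-normalized intensity with an offset of 50, and a difference is the mean of the SPF arrays minus the mean of the germ-free arrays. A gene is described where most arrays of 1 side or the other gave a detection p-value under 0.05. That held for 11334 of the 19693 genes on the array.

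The ileum is the last part of the small intestine. It absorbs bile acids and vitamin B12, and its epithelium houses many lymphocytes, most of them CD8 T cells armed with granzymes. Mice are colonised from birth, and at weaning the change from milk to solid food comes with a denser and more varied microbiota and a build-up of the mucosal immune system. Germ-free mice are known to have fewer lymphocytes in the gut lining, less IgA and lower levels of some antimicrobial lectins. Along the small intestine, enterocytes near the duodenum absorb iron and calcium, whereas those of the distal ileum take up bile acids and release the hormone FGF15.

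The 2 libraries fitted their labels as ileum after weaning in Fabp6 and in some suckling markers, but differed in gene lists for position along the intestine. Fabp6, the ileal bile acid binding protein, was at a log2 level of 14.22 in germ-free and 13.26 in SPF ileum. The distal ileum list had a mean level of 12.33 in germ-free and 11.54 in SPF ileum. For the proximal small intestine list it was 10.05 and 12.30. What lies behind this was not tested. Some markers of the suckling enterocyte were low on both sides: Meltf was detected on 0 arrays of either, and its level was 5.9 and 6.5 against 14.6 in SPF preweaned ileum. Others were not: Amn lay at 15.39 in germ-free and 14.76 in SPF ileum, against 15.64 in SPF preweaned ileum. Prdm1 was at 10.01 in SPF postweaned and 9.88 in SPF preweaned ileum. Of 15 listed genes 12 were detected, with a mean level of 11.14 in germ-free and 10.79 in SPF ileum, against 13.43 in SPF preweaned ileum. Transcripts of the muscle and connective tissue of the gut wall were detected in part. Myh11, Tagln, Col1a1 and Col3a1 were detected on 0 of the 6 arrays, whereas Mylk, myosin light chain kinase, lay at 11.69 in germ-free and 11.58 in SPF ileum and Smtn, smoothelin, at 9.04 and 9.39. Of 4 Y-linked genes, Ddx3y, Eif2s3y and Uty were detected on 0 of the 6 arrays and Kdm5d on 1 SPF array. The arrays differed in brightness: the median raw intensity was 43 to 50 on the germ-free and 62 to 78 on the SPF arrays, and 29.8% to 41.1% against 45.7% to 50.3% of the probes were detected. The part of this in the differences, and in the genes undetected without microbes, was not tested. Quantile normalization gives all arrays 1 distribution, so a general difference in RNA output cannot be seen. Log2 levels correlated at 0.974 or more between arrays of a side and at 0.885 to 0.913 between the sides, across genes.

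The 4 other samples, all labelled preweaned, serve below only to place a level, and they differ among themselves. By probes described further below, SPF preweaned lies in 1 set of arrays with the 2 postweaned samples, and the rest lie in another. Where a level is placed against the rest, sample and set of arrays cannot be told apart. The library labelled germ-free preweaned 2 and the one labelled humanized, from gnotobiotic mice whose microbes are not named, held Meltf at 6.8 and 6.6 and Mamdc4, another suckling enterocyte gene, at 7.8 and 7.6. Germ-free preweaned 1 and SPF preweaned ileum held Mamdc4 at 14.8 each. Muscle differed too: Myh11, smooth muscle myosin, was at 12.6 in the humanized sample and 11.1 in germ-free preweaned 2, against 7.4 and 6.5 in the remaining preweaned samples. Y-linked Ddx3y was detected on 3 of the 6 arrays of germ-free preweaned 1 (mean level 7.82) and on all 3 arrays of each of the others (9.17 to 9.84).

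Because 1 sample stands on each side, no difference below has a replicate check between animals. The SD between arrays is technical, and p-values are not given for single genes. A gene was counted as higher or lower at 2-fold or more. By that rule 1101 of 11334 genes (9.71%) were higher and 758 (6.69%) lower in SPF ileum, while 60.9% lay within 1.5-fold. The count of each list below is to be read beside these shares of 9.71% and 6.69%, and some lists lie near them. The balance depends on the scaling: with arrays set to a common 75th percentile 873 were higher and 1210 lower, and with no normalization 2632 and 225. The arrays of the 2 sides did not overlap for 1070 of the higher and 751 of the lower genes. This follows largely from the 2-fold rule, as the median SD between arrays was 0.14 in germ-free and 0.17 in SPF ileum. At 4-fold or more 200 were higher and 89 lower, and at 16-fold or more 14 and 7. In germ-free ileum 1712 of the described genes were detected on no array, and in SPF ileum 145. Where a level is such a bound, it was raised to the lowest detected intensity and the fold is given as "at least". Counted that way, 812 genes (7.16%) were 2-fold or more higher and 717 (6.33%) lower. A limma fit over all 6 samples, whose spread rests on the germ-free preweaned pair alone, called 0 genes (0%) at an adjusted p under 0.05. Its smallest adjusted p was 0.929, and 565 genes had an unadjusted p under 0.05.

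**Figure D1:**
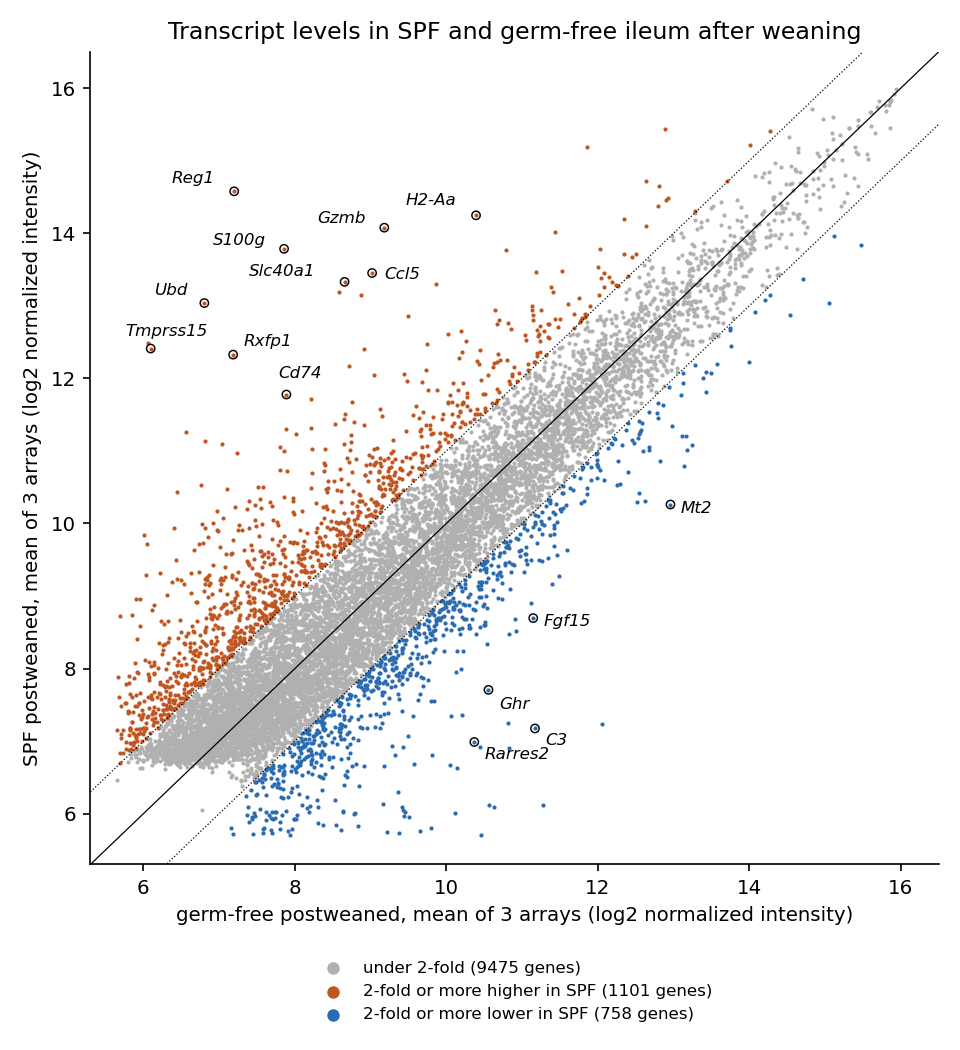
Log2 normalized intensity of each of 11334 genes in germ-free (x axis) and SPF (y axis) postweaned ileum, each the mean of 3 arrays, with dotted lines at 2-fold. Most genes lie near the diagonal, with 1101 above the upper and 758 below the lower dotted line, and Reg1 lies farthest above it at 7.20 in germ-free and 14.58 in SPF ileum.

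Among genes with an SD between arrays of at most 0.5, Reg1 differed most. It is a secreted C-type lectin of the regenerating family and was at log2 levels of 7.40, 7.30 and 6.89 on the germ-free arrays and 14.38, 14.69 and 14.66 on the SPF arrays, 167-fold higher in SPF ileum. The germ-free library was the one that stood apart, since Reg1 lay between 9.89 and 14.53 in the 4 preweaned samples. S100g, calbindin-D9k, carries calcium through the enterocyte. Its levels were 8.02, 7.96 and 7.58 without microbes and 13.87, 13.67 and 13.81 with them, a 60.9-fold difference. Ubd, which tags proteins for the proteasome and responds to interferon gamma, was detected on 0 germ-free arrays and lay at 13.13, 12.95 and 13.03 in SPF ileum, at least 45.5-fold higher. Rxfp1, a receptor for relaxin, was 35.3-fold higher, and Sult6b2, of the sulfotransferase family, at least 31.1-fold. Rgs1, a regulator of G protein signalling in lymphocytes, lay at 8.61, 8.53 and 8.62 against 13.29, 13.06 and 13.21, and was 24.2-fold higher. Ticam2, an adaptor of Toll-like receptor 4, was 13.3-fold higher, and 2210407C18Rik differed by 4.27. Reg1, Rxfp1 and Ticam2 were detected on 1 germ-free array, as were Cd69, Cd3g, Cd8a, Herc6, Mki67 and Ier5 below, so their folds are set against a level mostly not above background. That no germ-free array of these genes reached the lowest SPF array follows from how they were chosen.

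Cytotoxic lymphocyte transcripts were higher in SPF ileum. Of 34 T and NK cell genes, 29 were detected, of which 23 were higher and 2 lower in SPF ileum, against 9.71% and 6.69% of all genes. The median difference was 2.38, or 2.28 with undetected levels at their bound, beside -0.01 over all genes. Because 9 of the 29 were detected only on the SPF side, a member could enter through the side where it was high. Gzmb, granzyme B, was at 9.37, 9.21 and 8.96 on the germ-free arrays and at 14.16, 14.01 and 14.05 on the SPF arrays, 29.8-fold higher. Gzma, granzyme A, was already at 11.86 ± 0.02 (SD, 3 arrays) in germ-free ileum and reached 15.19 ± 0.13 in SPF ileum, a difference of 3.33. Itgae, the integrin that anchors lymphocytes to the epithelium, lay at 8.72, 8.61 and 8.80 against 12.22, 12.07 and 12.24. Both granzymes and the anchoring integrin were thus present without microbes, at lower levels.

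Components of the T cell receptor complex were higher too. Cd3g, Cd3d and Cd3e were 8.13-fold, 6.19-fold and 5.19-fold higher, and Lck, the kinase bound to CD8 and CD4, 10.7-fold. Cd8a, the CD8 alpha chain, was at 7.15, 7.34 and 6.82 on the germ-free arrays, 1 of which detected it, and at 10.61, 10.27 and 10.55 on the SPF arrays. Cd8b1, the beta chain, was at least 4.84-fold higher. Cd4 was detected on 0 arrays of either side, as were Prf1, Klrk1, Klrb1c and Eomes. Klrd1, part of the CD94 receptor of NK and T cells, was at least 8.03-fold higher. Cd69, a marker of activated and tissue-resident lymphocytes, was 16.6-fold higher, with a difference of 4.06 by this probe and 1.71 by its other one. The chemokine Ccl5, which cytotoxic T cells make, lay at 9.02 ± 0.02 against 13.45 ± 0.08, 21.6-fold higher. The 2 lower members went the other way: Ifng, interferon gamma, was at 9.48 ± 0.08 in germ-free and 7.85 ± 0.26 in SPF ileum, and Klrg1, a receptor of mature lymphocytes, was at 10.20, 10.74 and 11.53 against 6.91, 7.07 and 6.75.

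The summed intensity of the 29 detected members was 10383 to 12497 on the germ-free and 89749 to 98148 on the SPF arrays. In whole ileum, fewer lymphocytes and less RNA per lymphocyte cannot be told apart. SPF postweaned ileum lay 2-fold or more above all 4 preweaned samples in 23 of the 29 genes, whereas this held for 390 of all 11334 genes (3.44%). The mean level of the list was 6.67 in germ-free preweaned 1, 7.29 in germ-free preweaned 2, 7.46 in the humanized and 6.53 in the SPF preweaned sample, 7.81 in germ-free postweaned and 9.90 in SPF postweaned ileum. Of 18 B cell follicle genes on the array 8 were detected, with 1 higher, none lower and a median of 0.40, and Ms4a1 and Cr2 were detected on 0 arrays of either side.

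**Figure D2:**
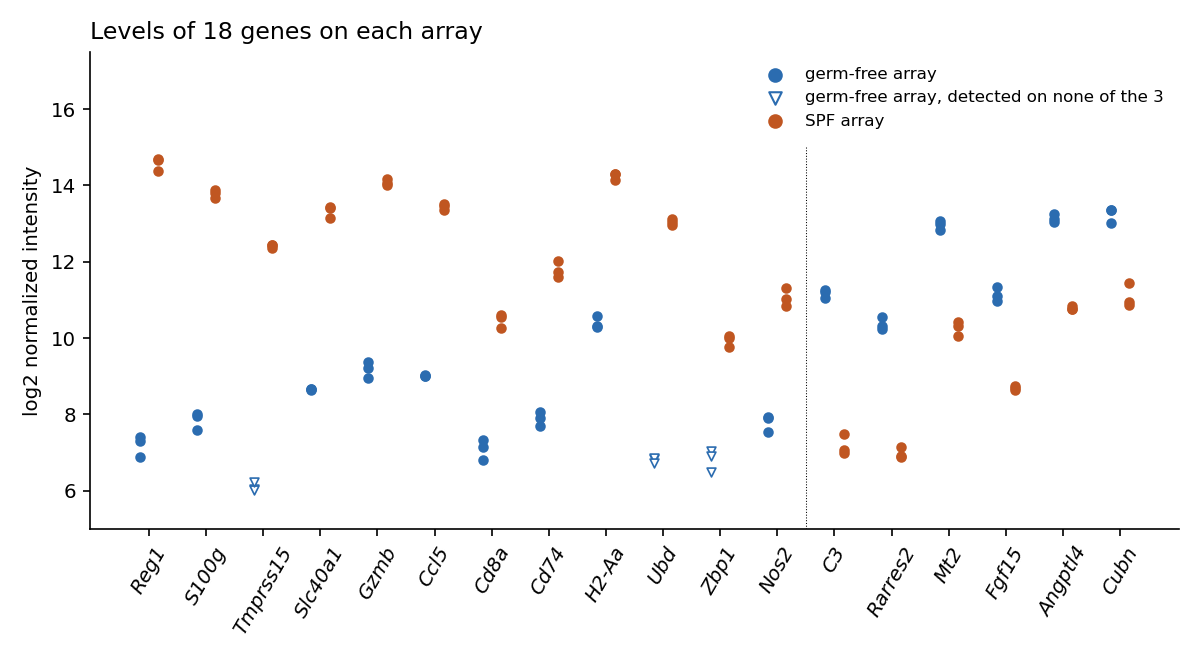
Log2 normalized intensity of 18 genes on each of the 3 germ-free and 3 SPF postweaned arrays, with open triangles where no germ-free array detected the gene. To the left of the dotted line all SPF arrays lie above all germ-free arrays, as for Gzmb at 14.01 to 14.16 over 8.96 to 9.37, and to its right all lie below, as for C3.

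MHC class II genes, which present peptides to CD4 T cells, had the largest median of the lists with 3 or more detected genes. Of 13 genes 12 were on the array and 9 were detected, of which 5 were higher and none lower, with a median of 3.10. These 5 were the antigen-binding chains, the invariant chain and a peptide-loading chain. H2-Aa lay at 10.31, 10.28 and 10.59 without microbes and 14.14, 14.29 and 14.30 with them, 14.5-fold higher. Cd74, the invariant chain, was at 8.06, 7.91 and 7.69 against 12.01, 11.60 and 11.73, 14.8-fold higher, and its 3 probes gave differences of 2.11 to 4.16. H2-DMb1, which helps to load peptides, was 11.3-fold higher, H2-Eb1 10.3-fold and H2-Ab1 8.59-fold. The other probe of H2-Eb1 gave a difference of 0.52. The remaining detected members differed less: H2-DMa by 0.16, Ifi30, a thiol reductase of antigen processing, by 0.36, and Ctss, cathepsin S, by -0.36. H2-Oa was detected on 0 germ-free arrays and had no fold above its bound. Ciita, the factor that switches class II genes on, was detected on 0 arrays of either side.

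Class II promoters carry a conserved block of motifs that ends in an inverted CCAAT box, read as ATTGG. The bases directly before the start of H2-Aa, H2-Eb1 and H2-DMb1 are shown because these genes were higher together. They come from RefSeq on GRCm38.p6, 150 bases each, 5′ to 3′ on the gene's strand, with ATTGG or its reverse complement CCAAT in capitals. The H2-Aa stretch is chr17:34287824-34287973 (minus strand), that of H2-Eb1 chr17:34305717-34305866 (plus) and that of H2-DMb1 chr17:34153041-34153190 (plus).
H2-Aa: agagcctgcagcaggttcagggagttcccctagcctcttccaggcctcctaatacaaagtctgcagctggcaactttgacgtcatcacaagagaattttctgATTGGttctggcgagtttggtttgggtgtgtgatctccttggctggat
H2-Eb1: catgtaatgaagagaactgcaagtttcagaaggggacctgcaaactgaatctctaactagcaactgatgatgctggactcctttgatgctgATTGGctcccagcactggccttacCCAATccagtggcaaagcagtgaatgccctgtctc
H2-DMb1: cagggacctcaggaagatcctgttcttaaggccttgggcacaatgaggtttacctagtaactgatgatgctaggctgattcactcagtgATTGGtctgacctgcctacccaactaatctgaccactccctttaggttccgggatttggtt
The first base of the motif lies 48 bases before the start in H2-Aa, 59 and 35 in H2-Eb1 and 61 in H2-DMb1. The run AACTGATGATGCT is shared by H2-Eb1 and H2-DMb1 and occurs in 2 of 32851 promoters; it was picked after the sequences had been seen. ATTGG on either strand was found in 5 of 8 promoters of the detected class II genes (62.5%), which stand for 7 of the 9 genes, without H2-Ab1 and Cd74, and in 37.4% of all promoters, each read from 250 bases before to 50 after the start. It is short and common, and a match is a description of the letters only.

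Class I presentation and the immunoproteasome had a smaller median. Of 14 detected genes 6 were higher and none lower (median 0.67). Psmb9 and Psmb8, catalytic subunits that replace those of the standard proteasome, were at 10.69 ± 0.25 and 11.76 ± 0.12 in germ-free ileum and at 12.34 ± 0.16 and 13.11 ± 0.11 in SPF ileum. Tap1, a subunit of the transporter that moves peptides into the endoplasmic reticulum, was 2.17-fold higher and the class I gene H2-Q1 2.82-fold. Nlrc5, which switches on class I genes, was at least 2.79-fold higher. B2m, the light chain of class I molecules, was near the top of the range on both sides, at 15.41 ± 0.03 and 15.11 ± 0.10.

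Interferon-stimulated genes were higher in part. Of 33 detected antiviral genes 13 were higher and 1 lower (median 0.94, or 0.68 at bounds). Zbp1, a sensor of Z-form nucleic acids, was at least 5.32-fold higher. Isg15, a ubiquitin-like protein attached to others during infection, lay at 11.14, 11.14 and 11.11 against 12.97, 12.96 and 12.88, 3.50-fold higher. Irf9, the DNA-binding part of the factor that drives these genes, was 3.64-fold higher and Herc6, the ligase for Isg15 in the mouse, 4.10-fold. Cmpk2, a mitochondrial nucleotide kinase, was 2.38-fold lower. Of 19 detected interferon gamma effectors 7 were higher and 1 lower (median 0.39). Besides Ubd, the immunity GTPases Ifi47 and Igtp were 4.15-fold and 2.83-fold higher, and Ido1, which degrades tryptophan, 3.23-fold. Gbp3, a guanylate-binding protein, was 2.14-fold lower, with an SD of 0.63 between germ-free arrays. Both kinds of gene are read through elements with the core GAAANNGAA. On either strand it lay in 54.2% of 24 promoters of the detected antiviral genes, in 47.4% of 19 of the interferon gamma effectors and in 8.56% of all promoters. Among promoters of all genes higher in SPF ileum the share was 8.18%. Of 3 promoters read over the 150 bases before the start, those of Ubd and Psmb9 held 0 matches and that of Gbp2 held 1, although Gbp2 differed by only 0.95. The Gbp2 stretch is shown as an example of the core. On the plus strand of GRCm38.p6 at chr3:142620513-142620662, it reads as follows, with the reverse complement of the core in capitals.
Gbp2: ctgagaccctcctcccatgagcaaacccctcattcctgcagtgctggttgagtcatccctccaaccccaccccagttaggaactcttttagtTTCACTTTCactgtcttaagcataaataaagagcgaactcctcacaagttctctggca

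Chemokines had 8 of 16 detected genes higher and none lower (median 0.93, or 0.51 at bounds, where 4 were higher). Ccl4 and Ccl3, which draw in T cells and monocytes, were detected on 0 germ-free arrays and were at least 12.1-fold and 7.45-fold higher. Cxcl14, a chemokine of epithelia, was 7.18-fold higher. Ccl25, which brings T cells to the small intestine, was high on both sides, at 13.95 ± 0.12 and 14.24 ± 0.05. Among cytokines and their inhibitors 7 of 15 were higher and 1, Ifng, lower. Il18, an epithelial cytokine of the inflammasome pathway, lay at 10.02, 10.16 and 10.40 against 12.50, 12.73 and 12.71, 5.48-fold higher, and its inhibitor Il18bp was 2.73-fold higher. Tnfsf13b, the B cell survival factor BAFF, was 2.78-fold and Il1b 2.55-fold higher. Il6, Il17a and Il12b were detected on 0 arrays of either side.

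Macrophage and dendritic cell genes were dim. Of 15 detected members 6 were higher and none lower (median 0.86), but 10 of the 15 were detected only in SPF ileum, and at bounds 3 were higher with a median of 0.54. Fcer1g, a signalling chain of Fc receptors, was 4.62-fold higher, and Itgax, the dendritic cell integrin CD11c, at least 2.62-fold. C1qc, a chain of complement C1q made by macrophages, was at 9.45, 10.40 and 9.03 on the SPF arrays and at least 4.28-fold higher. The mean level of the list was 6.93 in germ-free postweaned and 8.05 in SPF postweaned ileum, and it was 8.52 to 8.97 in the germ-free and humanized preweaned samples and 6.92 in SPF preweaned ileum. The germ-free and humanized preweaned samples lie in the other set of arrays, so sample and set cannot be told apart in this split.

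Proteins that act on microbes at the surface differed in part. Of 12 detected antimicrobial genes 5 were higher and none lower (median 0.83). Apart from Reg1 these were Dmbt1, a scavenger receptor of mucus, at 9.90, 9.78 and 9.92 against 13.43, 13.19 and 13.28, Reg4, Reg3g and Lypd8, a protein that binds flagella. Dmbt1 was 10.8-fold higher, Reg4 6.04-fold, Reg3g 5.86-fold and Lypd8 3.60-fold. Reg3g was already at 12.89 ± 0.17 in germ-free ileum. Its neighbours in the family differed little, with Reg3b at 14.52 ± 0.06 against 15.33 ± 0.17 and Reg3a at 13.26 ± 0.02 against 13.49 ± 0.08. Nos2, the inducible nitric oxide synthase, lay at 7.94, 7.92 and 7.55 against 11.31, 10.84 and 11.02, 9.56-fold higher. Pigr, the receptor that carries IgA into the lumen, was at 10.74, 10.71 and 10.89 against 13.82, 13.75 and 13.77, 7.97-fold higher, although the 2 germ-free preweaned samples differed more than that, by -3.26. Jchain, which joins IgA monomers, was detected only in SPF ileum and was at least 1.20-fold higher. Tlr1, a Toll-like receptor for lipoproteins, was at least 2.24-fold and Tnfaip3, an inhibitor of NF-kappaB signalling, 3.29-fold higher. They were the only higher genes among 13 detected members of the list of Toll-like receptors and adaptors (15.4%, against 9.71% of all genes). That list does not hold Ticam2, the higher adaptor given above.

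**Figure D3:**
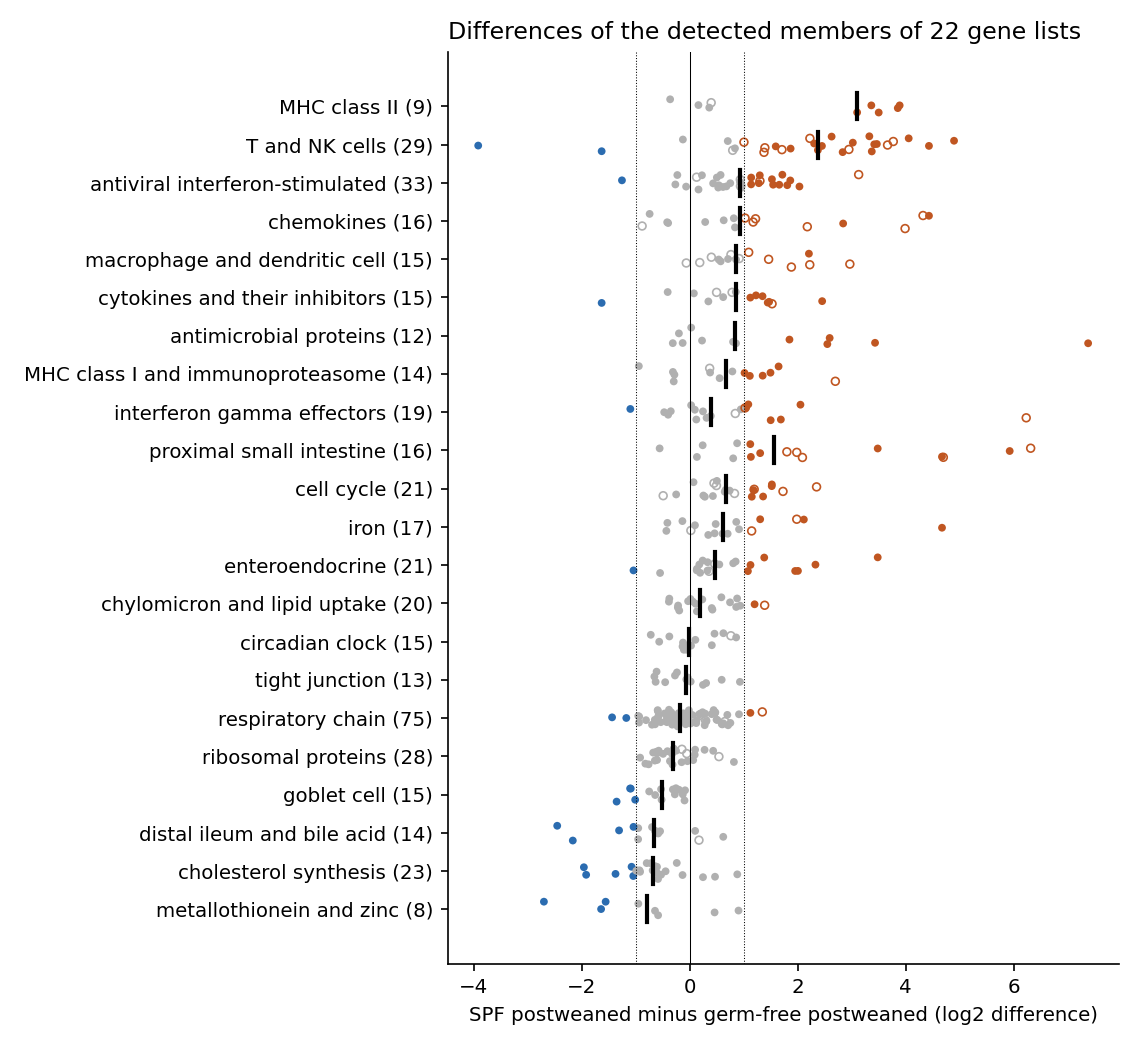
Log2 difference, SPF minus germ-free postweaned, of the detected members of 22 gene lists (number in brackets), with the list median as a black bar and open circles where 1 side detected the gene on no array. MHC class II and T and NK cell genes lie farthest to the right, with medians of 3.10 and 2.38, and cholesterol synthesis and metallothionein genes to the left, with medians of -0.68 and -0.80.

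Most of the proximal list of epithelial genes was higher in SPF ileum. All 16 were detected, and 11 were higher and none lower, with a median of 1.55, or 1.13 with 9 higher at bounds. Tmprss15, enteropeptidase, which activates trypsin, was detected on 0 germ-free arrays and lay at 12.36, 12.43 and 12.44 on the SPF arrays, at least 29.5-fold higher. Slc40a1, the iron exporter ferroportin, was at 8.64, 8.67 and 8.66 against 13.43, 13.15 and 13.41, 25.5-fold higher. Trpv6, the calcium channel of the brush border, was at least 13.2-fold higher. The transcription factors Pdx1 and Gata4 were higher too, Pdx1 at least 2.57-fold and Gata4 2.18-fold. Here germ-free postweaned ileum was the low sample: the mean level of the list was 10.05 in it, 12.30 in SPF postweaned ileum and 11.15 to 12.07 in the 4 preweaned samples. Slc40a1 lay between 13.42 and 15.74 in those 4.

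Other absorption genes divided. Among 17 detected iron genes 5 were higher and none lower (median 0.61). Slc46a1, which takes up folate and haem, was 4.33-fold higher, and Slc11a2, the ferrous iron importer, 2.47-fold, with a difference of 0.22 by its other probe. Germ-free postweaned ileum lay 2-fold or more below all 4 preweaned samples in 4 of the 17. Of 11 detected calcium and phosphate genes 4 were higher and 2 lower. Besides S100g and Trpv6, the phosphate transporters Slc20a1 and Slc34a2 were higher, by 1.33 and 1.73. The value of Slc34a2 rests on germ-free array 3, which read 5.64 where the other germ-free arrays read 14.10 and 13.68; without that array it was lower by -1.02. Slc34a3, a further phosphate transporter, was 2.25-fold lower. Intestinal alkaline phosphatases were higher: Alpi 2.01-fold, at 13.71 ± 0.25 against 14.71 ± 0.11, and Akp3 at least 2.70-fold.

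Brush border enzymes went both ways, with 2 of 12 peptidase genes higher and 4 lower. Slc15a1, the peptide transporter PepT1, lay at 8.13, 8.18 and 7.98 against 9.97, 10.27 and 10.26, 4.21-fold higher. By contrast Xpnpep2, an aminopeptidase, was at 14.97, 15.14 and 15.03 against 13.14, 12.98 and 12.98, 4.04-fold lower, Mep1a, a meprin subunit, 3.41-fold and Enpep, glutamyl aminopeptidase, 3.08-fold. Among 11 genes for sugar digestion and transport 1 was higher and 1 lower (9.09% each, near the 9.71% and 6.69% of all genes). The higher one was Slc2a7, a hexose transporter, at 3.91-fold, and the lower one Tkfc, a kinase of fructose metabolism, at 3.35-fold. Sis, sucrase-isomaltase, was at 13.50 ± 0.11 and 14.35 ± 0.06, and Slc5a1, the sodium glucose transporter, differed by 0.02, with overlapping arrays. Genes of chylomicron assembly were close on the 2 sides, with a median of 0.19. Here 2 of 20 were higher (10%, against 9.71% of all genes) and none lower.

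Hormone-producing enteroendocrine cells had 7 of 21 detected genes higher and 1 lower (median 0.46). Cck, cholecystokinin of the upper intestine, lay at 8.92 ± 0.13 against 12.40 ± 0.21, 11.2-fold higher. Ghrl, ghrelin, was 5.03-fold higher, Tph1, which makes serotonin, 4.02-fold and the granule protein Chgb 3.88-fold. Pyy, peptide YY of the lower intestine, was at 12.26, 12.26 and 12.12 against 10.74, 11.37 and 11.41, 2.05-fold lower. Cell cycle genes had 8 of 21 higher and none lower (median 0.67, or 0.62 at bounds), among them Cenpa, a centromeric histone, and the proliferation marker Mki67, each 2.87-fold, and Top2a at least 2.12-fold. Of 6 detected crypt stem cell genes none was higher and 1, Slc12a2, was 3.21-fold lower.

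Genes of the distal ileum were lower in part, with 4 of 14 lower, none higher and a median of -0.67. Another 10 did not pass 2-fold, and 3 of them lay above 0. Fgf15, the hormone that reports bile acids to the liver, was at 10.98, 11.11 and 11.35 on the germ-free arrays and 8.64, 8.70 and 8.74 on the SPF arrays, 5.47-fold lower, and the 2 germ-free preweaned samples were 3.56 apart in it. Cubn, the receptor for vitamin B12 bound to intrinsic factor, was at 13.36, 13.36 and 13.01 against 11.44, 10.86 and 10.94, 4.48-fold lower. Osr2, a zinc finger factor, was 2.47-fold lower. The bile acid exporter chain Slc51a and the binding protein Fabp6 were lower by less than 2-fold, at -0.95 each, and the importer Slc10a2 by -0.64. The list stood at 12.33 in germ-free postweaned, the highest of the 6 samples, and at 11.54 in SPF postweaned ileum.

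Among lower genes with an SD of at most 0.5, C3 differed most. This central complement protein was at 11.06, 11.20 and 11.25 without microbes and 6.98, 7.48 and 7.06 with them, 15.9-fold lower. Rarres2, the precursor of chemerin, was at 10.23, 10.32 and 10.55 against 6.92, 7.15 and 6.89, 10.4-fold lower. Of these 2, C3 in germ-free postweaned ileum lay above all 4 preweaned samples (7.09 to 8.87), whereas Rarres2 in SPF postweaned ileum lay below them (9.04 to 10.91). Ghr, the growth hormone receptor, was 7.21-fold lower, Pros1, the anticoagulant protein S, 7.17-fold, and Ereg, a ligand of the EGF receptor, 6.54-fold. The germ-free preweaned pair was further apart than this in Ghr, by 3.22. Bmp7, a growth factor of the TGF-beta family, was at least 6.45-fold lower, with that pair 3.98 apart, and Dio3, which inactivates thyroid hormone, at least 5.34-fold. Dcn, the matrix proteoglycan decorin, was 5.71-fold and Cav1, caveolin 1 of endothelium and stroma, at least 5.37-fold lower. Myot, a muscle protein, was at least 6.18-fold lower, Ttc36 5.71-fold and 3300002I08Rik, detected on 1 SPF array, 7.37-fold. Beside Dcn, the detected fibroblast and collagen genes were Col6a1 and Col6a2, which differed by -0.45 and -0.54, and Col6a3, detected on 0 germ-free arrays, whose difference of 1.03 was 0 at its bound.

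Metallothionein and cholesterol genes were lower in part. Of 8 metallothionein and zinc genes 3 were lower and none higher (median -0.80). Mt2 and Mt1, small proteins that bind zinc and copper, were at 12.96 ± 0.13 and 15.47 ± 0.06 in germ-free and 10.26 ± 0.18 and 13.83 ± 0.05 in SPF ileum. For both, SPF postweaned ileum was the lowest of the 6 samples. Slc30a2, which loads zinc into vesicles, was 2.94-fold lower. Cholesterol synthesis had 5 of 23 lower, none higher, and 20 of 23 below 0 (median -0.68). Mvd, mevalonate diphosphate decarboxylase, was at 10.43, 10.28 and 10.04 against 9.10, 8.71 and 8.81, 2.59-fold lower. Mvk, mevalonate kinase, differed by -1.07 and Cyp51, a sterol demethylase, by -1.04. The list stood at 10.40 in germ-free postweaned ileum, the highest of the 6 samples, at 9.72 in SPF postweaned and at 8.41 to 9.57 in the preweaned samples. ATTGG lay in 77.8% of 18 promoters of these genes, against 37.4% of all promoters. The sterol core TCACNCCAC lay in 0 of the 18 and in 1.24% of all.

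Of 19 detected genes of fatty acid oxidation and PPARalpha 3 were lower and none higher (median -0.18). Angptl4, an inhibitor of lipoprotein lipase, lay at 13.12, 13.27 and 13.04 against 10.75, 10.85 and 10.75, 5.12-fold lower, and Ppara itself was 2.74-fold and Vnn1, a pantetheinase, 2.18-fold lower. The germ-free preweaned pair differed by -4.47 in Angptl4. Retinoid genes had 2 of 15 lower and 1, at 1.52, higher (median -0.36). The lower ones were Cyp26b1, which breaks down retinoic acid, at least 3.75-fold, and Aldh1a1, which makes it, 2.60-fold. Arginine and citrulline genes had 2 of 8 lower and 1 higher (median -0.45), with differences down to -2.16. The higher one was Cps1, the first enzyme of citrulline synthesis, at 3.44-fold. Conjugation and drug efflux genes had 5 of 30 higher and 3 lower (median 0.11). Among them the efflux pumps Abcb1a and Abcc2 differed in opposite directions, Abcb1a 3.21-fold lower and Abcc2 3.68-fold higher. Cytochrome P450 genes and their regulators had 2 of 22 higher and 4 lower (median -0.09), and Cyp2j6 was 3.70-fold lower. Goblet cell genes lay below 0 in 15 of 15 cases (median -0.52, beside -0.01 over all genes). Among them 4 (26.7%) were 2-fold or more lower, against 6.69% of all genes. Over the scalings the median of the list ran from -0.90 to -0.11. Tpsg1 was 2.55-fold lower and Spdef, the goblet cell factor, 1.68-fold, whereas the mucin Muc2 was at 15.60 ± 0.09 against 15.47 ± 0.09, with overlapping arrays.

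Several lists had few or no genes past 2-fold. The 15 detected clock genes had none higher and none lower (median -0.01), and so had 13 tight junction genes (median -0.06) and 28 cytosolic ribosomal protein genes (median -0.31). Of 75 respiratory chain genes 2 were higher and 2 lower, and of 22 genes of heat shock and unfolded proteins only Hspa1b, a heat shock protein, was higher, 2.25-fold. Immediate early genes, which respond within minutes to handling, had 3 of 19 higher and none lower (median 0.24), led by Ier5 at 7.15-fold and Socs3 at 3.85-fold. In all, the 56 lists hold 735 detected genes, 145 of them higher and 56 lower, so 956 of the higher and 702 of the lower genes lie outside them.

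**Figure D4:**
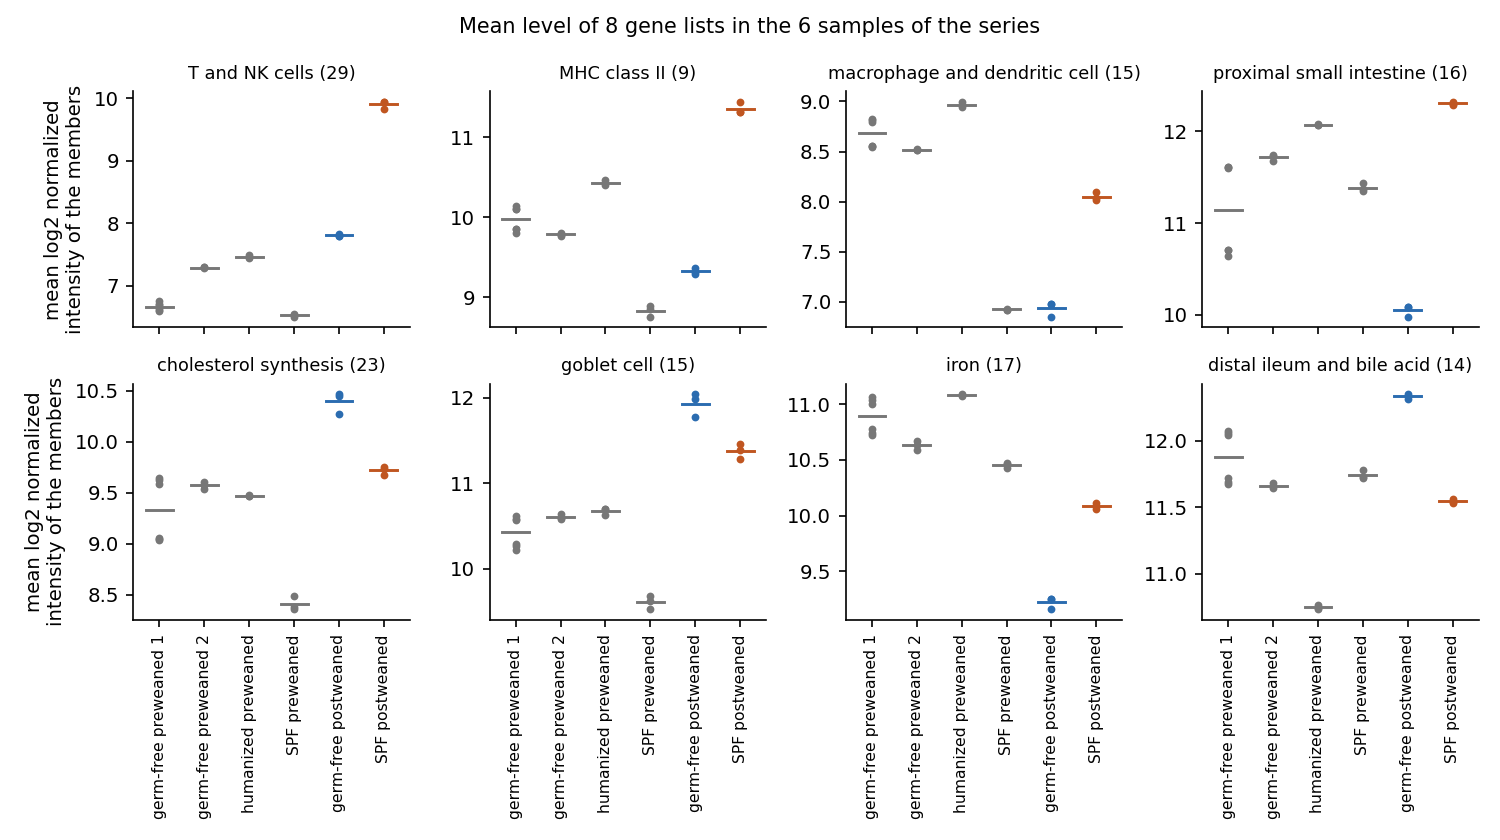
Mean log2 normalized intensity of the detected members of 8 gene lists (number in brackets) in the 6 samples, with a point per array and a bar per sample mean. SPF postweaned ileum is highest for T and NK cell and MHC class II genes, and germ-free postweaned ileum is lowest for proximal and iron genes and highest for cholesterol, goblet cell and distal ileum genes.

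For a minority of the genes, the 4 preweaned samples set 1 side apart. Of the 1101 higher genes, SPF postweaned ileum lay 2-fold or more above all 4 in 259, germ-free postweaned ileum lay 2-fold or more below all 4 in 56, and neither held in 786. Of the 758 lower genes, SPF postweaned ileum lay below all 4 in 64 germ-free postweaned above all 4 in 178, and neither held in 516. In 62 of those 178 the SD between germ-free arrays was over 0.5. Among all lower genes 102 (13.5%) had such a spread, against 4.60% of all genes, and in 93 of the 102 germ-free array 3 was the brightest, as it was in 412 of all 521 genes with such a spread. Flot2, Atp10a and Klrg1 are of this kind. Atp10a, a lipid flippase, lay at 10.43, 11.02 and 12.38 on the germ-free arrays and was detected on 0 SPF arrays, at least 23.1-fold lower, and Flot2, flotillin 2, at 11.59, 11.81 and 12.78 was 28.4-fold lower. Of the 1101 higher and 758 lower genes, 994 and 604 differed by more than the germ-free preweaned pair did in the same gene. Because these genes were picked at 2-fold or more, many would exceed the gap of the pair by that choice alone. The pair itself differed 2-fold or more in 2065 genes (18.2%), beside 1859 between SPF and germ-free postweaned ileum. That pair differed in the suckling markers, with Meltf at 14.6 in the first and 6.8 in the second.

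The same contrast before weaning uses other samples, SPF preweaned against 2 germ-free preweaned ilea. Here before weaning is as labelled, since Meltf was low in germ-free preweaned 2. Against both germ-free preweaned samples, 897 genes passed 2-fold upward in SPF ileum and 572 downward. Higher at both ages were 222 genes, which is 20.2% of those after and 24.7% of those before weaning, and 132 were higher after and lower before weaning (11.99% and 23.1%). Lower at both ages were 32 genes (4.22% and 5.59%), and 32 were lower after and higher before weaning. MHC class II genes were among those in opposite directions. H2-Aa was at 12.55 and 12.88 without microbes before weaning and at 8.87 in SPF preweaned ileum, below all 3 germ-free samples of the series, while it was highest of all in SPF postweaned ileum at 14.25. Before weaning, the group and the set of arrays cannot be told apart. Here 33 probes were 8-fold or more higher in germ-free postweaned, SPF postweaned and SPF preweaned ileum than in the other 3 samples and 23 lower, while no other division of the 6 samples into 3 and 3 gave more than 2 at that fold. By detection alone, 54 and 49 probes were detected in 1 set only, and another division gave 71 and 0. SPF postweaned and germ-free postweaned ileum lie in 1 set.

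**Figure D5:**
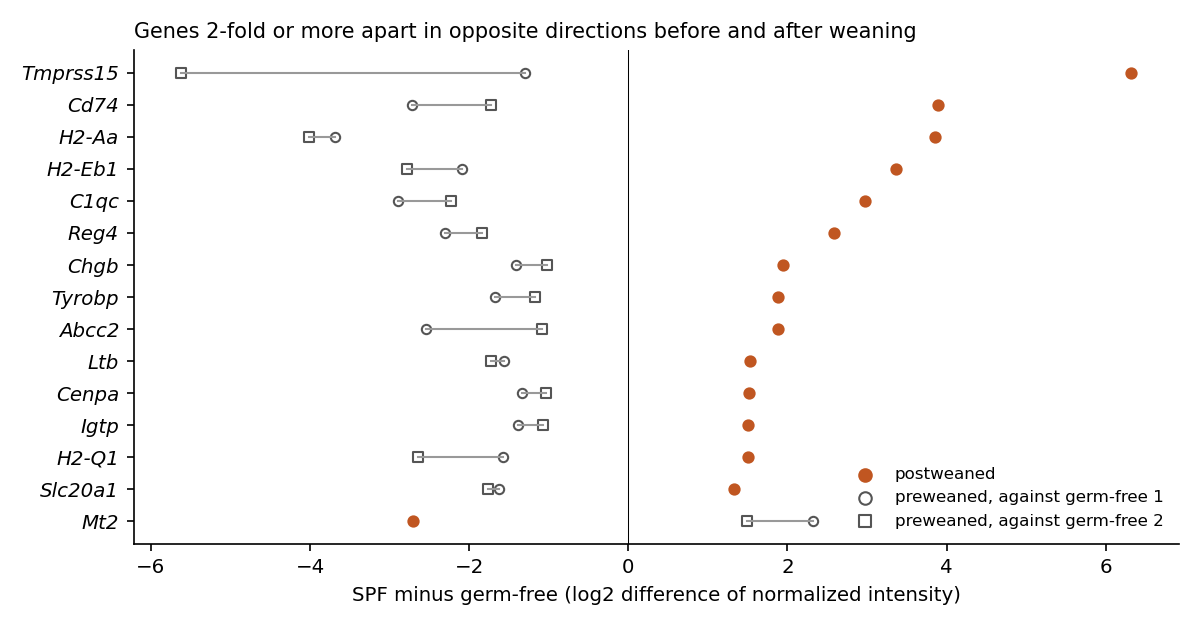
Log2 difference, SPF minus germ-free ileum, of 15 named genes after weaning (filled circles) and before weaning against each germ-free preweaned sample (open symbols). All 15 lie 2-fold or more on opposite sides of 0, with H2-Aa at 3.86 after and -3.69 and -4.01 before weaning.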

How the data were processed

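Each deposited file holds raw probe intensity by array, per the file headers, as whole numbers, some below 0, so the authors had already subtracted a background; the image software is not named in the labels. Each intensity was deposited with its detection p-value. The 21 arrays were quantile-normalized, floored at 0, raised by an offset of 50 and put on a log2 scale, which understates folds of dim genes. Of 26423 probes 22551 carried 1 symbol, 237 several and 3633 none; symbols were updated with RefSeq on GRCm38.p6, and 25 spoilt by a spreadsheet were restored. A gene was read from its brightest detected probe, and 956 described genes had several. A side that detected a probe on 0 arrays was set to the higher of its own value and the lowest detected one.

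Differences are array means, with no test between the sides. A fit of group means over the 6 samples used limma 3.58.1 (R 4.3.3), with Benjamini-Hochberg adjustment. Nothing says that the germ-free preweaned pair came from separate animals, so the spread behind the p-values may not be one between animals. Log2 levels of that pair correlated at 0.887 across genes, against 0.974 or more between arrays of a postweaned side. Between the SPF and germ-free postweaned samples the value was 0.910, higher than within the pair. What the spread of the germ-free preweaned pair reflects was not tested. The fit was also run on simulated data with the same small noise in every sample. The real germ-free preweaned pair was further apart than that, so the run checks only the working of the code. Other steps used Python 3.11.15. The number of arrays limits the precision. The 56 lists and the naming rules were chosen with earlier results of these data known. Named were the 15 largest differences per direction among genes with arrays apart and an SD of at most 0.5, and up to 4 members per list with others that account for it. Each array side was described from its own 3 arrays, and 0 value columns were left unmapped. Genes named for a spread over 0.5 and the shared promoter run were chosen after their values were seen. The authors' deposited series matrix, whose intensity values follow the unnormalized array means, served as an alternative. Some list members are not reported here.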

Additional observations from a re-analysis of the deposited data

Results flagged for a closer look

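The 15 named genes in the plot of differences before and after weaning were 2-fold or more apart in opposite directions at the 2 labelled ages. This held against both samples labelled germ-free preweaned. Of these, germ-free preweaned 2 held the suckling marker Meltf at 6.8, against 14.6 in germ-free preweaned 1. After weaning the differences, SPF minus germ-free, were 3.89 for Cd74, 3.86 for H2-Aa, 3.37 for H2-Eb1 and 1.50 for H2-Q1, all of antigen presentation. They were 2.97 for C1qc and 1.88 for Tyrobp, both of macrophages, 1.53 for Ltb, a lymphocyte cytokine, and 1.50 for Igtp. Among epithelial and dividing cell genes they were 6.32 as measured for Tmprss15, 2.59 for Reg4, 1.95 for Chgb, 1.88 for Abcc2, 1.33 for Slc20a1 and 1.52 for Cenpa. Before weaning these 14 lay between -5.62 and -1.02. Mt2 turned the other way, at -2.70 after and 2.32 and 1.49 before weaning. As a test of the change with age, limma's interaction term called 0 genes (smallest adjusted p 0.732, 750 genes at an unadjusted p under 0.05). Before weaning, the group and the set of arrays cannot be told apart.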

How the results depend on the processing

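Under 17 alternatives and 1 more chosen after seeing the data (SD between arrays of at most 0.5), the direction of the 142 named genes that were 2-fold apart held wherever the gene was measured, except that 2, Col6a3 among them, became 0 at their bound and that Slc34a2, 1.73 as reported, ranged from -1.02 (without germ-free array 3) to 3.21 with 1 array left out and was -0.36 in the authors' series matrix values. The scaling set the balance of calls. With no normalization 2632 genes were higher and 225 lower, and with the series matrix values 2696 and 226, while the median of all genes moved to 0.50 and 0.51. With a common 75th percentile 873 were higher and 1210 lower, so that 41.9% of the calls were higher in place of 59.2%. With detection required on both sides 601 were higher and 599 lower (50.1% higher). Against the median of all genes, the list medians of T and NK cell, MHC class II, proximal, cholesterol, goblet cell, distal ileum and metallothionein genes kept their sign under these scalings. As measured 22 of 50 lists turned in sign, as these scalings move all genes together; against the median of all genes 5 did (sugar digestion, chylomicron, clock, immediate early and heat shock genes). Lists with a median of 2-fold or more numbered 3, but 5 with the 75th percentile, 15 with no normalization and with the series matrix, 8 with an offset of 16 and 6 with detection on every array of a side. Leaving out 1 array gave 1028 to 1182 higher genes, 648 to 824 lower genes and 3 to 6 such lists, 6 without SPF array 2. All limma alternatives called 0 genes, with 555 to 1040 at an unadjusted p under 0.05; the smallest adjusted p, 0.0598, came with trend and robust settings. No paired analysis was possible because the 2 postweaned groups hold 1 sample each. Leaving out 1 germ-free preweaned sample leaves the fit of group means no residual degree of freedom, so it was done in the additive fit.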
